A study of Mus musculus with 2 samples.

Results

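The AP-1 factor genes are the genes of the basic leucine zipper proteins that pair up to form the transcription factor AP-1. The 10 genes described here, Jun, Junb, Jund, Fos, Fosb, Fosl1, Fosl2, Batf, Batf3 and Atf3, were chosen by name, out of 21728 protein-coding genes on the assembled autosomes and the X chromosome. For each gene, transposase-accessible DNA fragments were counted within 1 kb of the transcription start site, over the gene body, and in 500-bp bins and distal peaks of the gene and its 100-kb flanks. The aged library was then set against the young one. In mm10 and GENCODE vM21, the genes lie at chr4:95049034-95052222 (Jun, minus strand), chr8:84974484-84978718 (Junb, minus), chr8:70698949-70700616 (Jund, plus), chr12:85473890-85477273 (Fos, plus), chr7:19302696-19310051 (Fosb, minus), chr19:5447547-5455946 (Fosl1, plus), chr5:32135801-32157842 (Fosl2, plus), chr12:85686669-85709087 (Batf, plus), chr1:191097847-191108945 (Batf3, plus) and chr1:191170296-191218039 (Atf3, minus).

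AP-1 is a dimer. Jun proteins bind DNA as pairs with one another or with Fos proteins, whereas Fos proteins need a Jun partner. Batf and Batf3 lack a transactivation domain of their own and pair with Jun proteins, and Atf3 is a stress-induced relative that joins Jun proteins or itself. Fos, Fosb, Jun, Junb and Atf3 are immediate early genes, which are transcribed within minutes of a growth factor, cytokine or stress signal, and their promoters are typically open before the signal arrives. The preferred site of Jun and Fos dimers is the phorbol ester response element (TRE), and that of dimers with Atf members is the cyclic AMP response element (CRE).

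Single-cell ATAC-seq was run on hematopoietic stem cells (HSCs) from C57BL/6 bone marrow at 10 weeks (young) and 20 months (aged) of age, from female animals according to the methods of the study. Both groups were unmanipulated and passed the same gate (Sca-1+ and c-kit+ but Lin-, then CD150+, CD48-, CD34-, Flt3- and IL-7-), and the number of animals behind each library is not given in the sources used here. There was 1 library per age, so no test between ages was possible, and age cannot be told apart from any other difference between the libraries. Barcodes called as cells with 3000 to 20000 fragments in peaks came to 4887 (young) and 3405 (aged).

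The libraries held 53786133 and 48333115 unique fragments, with medians of 9890 and 11020 per retained cell, and 26 of the retained cells' barcodes occurred in both. Fragments shorter than 150 bp made up 60.3% of the young and 55.6% of the aged fragments. All levels are scaled to 1000000 fragments in the combined peaks of each library (FPM), intervals are exact 95% intervals that cover counting error only, and a positive log2 ratio means a higher level in the aged library. The promoters of 8 HSC marker genes (Kit, Slamf1, Hlf and others) summed to 152 and 150 FPM, against 7.86 and 7.46 for 4 B cell, 8.0 and 6.05 for 4 T cell and 12.1 and 12.2 for 5 granulocyte-monocyte markers. The 4 megakaryocyte markers summed to 112 and 101 FPM, the 4 erythroid ones to 46.8 and 44.1, and the 4 of stroma and endothelium to 47.7 and 47.4. Because the lists differ in length, medians per gene are also given. They were 16.1 and 16.8 FPM for HSC, 29.95 and 25.5 for megakaryocyte, 13.8 and 14.2 for stroma and endothelium and 9.91 and 9.14 for erythroid markers. B cell markers had 2.21 and 1.76, T cell markers 0.838 and 0.459 and granulocyte-monocyte markers 1.59 and 1.80. Megakaryocyte promoters were thus by median more open than the HSC ones. No marker was at 0, while the HSC markers Mecom and Ly6a had only 0.52 and 3.0 FPM in the young and 0.54 and 2.83 in the aged library at the annotated start. The part of other cell types in the results below was not tested.

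Promoter sequences were available from RefSeq (mm10, assembly GRCm38.p6) for 9 of the 10 genes, and the 250 bases before the start were searched on both strands for 6 fixed motifs. These were the TRE (TGACTCA, read as TGAGTCA on the other strand), the CRE (TGACGTCA), a STAT site (TTCNNNGAA), the CArG box of the serum response element, the CCAAT box (CCAAT) and the GC box (GGGCGG). No member's window held a TRE, a CRE or a CArG box in these letters, and over all 32851 promoters the shares with one were 4.46%, 1.55% and 1.47%. Sites farther from the start, or spelled otherwise, were not searched for, so these promoters may hold such sites. A GC box was present in 7 of the 9 windows (77.8%, against 32.7% of all promoters), a CCAAT box in those of Jun and Junb (22.2% against 33.9%), and a STAT site in that of Batf3 (11.1% against 7.02%). The Jund window alone held none of the 6. These windows end at the RefSeq start, which for Jund lies at -1210 bases, for Fosl2 671 bases into the gene and for Atf3 34706 bases into the gene, counted from the annotated gene start at which the levels below were taken. The promoters of 4 genes are printed 5′ to 3′ along the gene with these motifs in capitals: Fos and Jun as the founding pair, Fosl2 as the promoter that differed most between the libraries among those with over 20 FPM, and Atf3 for its proximal start.

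Jun, chr4:95052223-95052472, minus strand: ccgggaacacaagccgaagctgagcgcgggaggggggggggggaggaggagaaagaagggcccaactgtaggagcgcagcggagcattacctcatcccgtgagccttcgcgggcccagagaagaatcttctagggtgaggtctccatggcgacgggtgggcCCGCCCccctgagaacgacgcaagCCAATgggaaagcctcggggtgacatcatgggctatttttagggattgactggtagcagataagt

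Fos, chr12:85473640-85473889, plus strand: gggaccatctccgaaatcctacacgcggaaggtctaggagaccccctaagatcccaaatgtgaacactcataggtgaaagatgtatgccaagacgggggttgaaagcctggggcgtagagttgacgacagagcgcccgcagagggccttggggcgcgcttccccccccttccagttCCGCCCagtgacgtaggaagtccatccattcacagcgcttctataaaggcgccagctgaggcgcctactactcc

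Fosl2, chr5:32136222-32136471, plus strand: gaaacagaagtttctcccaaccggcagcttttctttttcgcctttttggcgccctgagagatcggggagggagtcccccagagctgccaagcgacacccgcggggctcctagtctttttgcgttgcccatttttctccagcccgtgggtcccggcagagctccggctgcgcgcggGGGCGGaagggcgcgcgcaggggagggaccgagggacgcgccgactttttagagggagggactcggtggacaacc

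Atf3, chr1:191183334-191183583, minus strand: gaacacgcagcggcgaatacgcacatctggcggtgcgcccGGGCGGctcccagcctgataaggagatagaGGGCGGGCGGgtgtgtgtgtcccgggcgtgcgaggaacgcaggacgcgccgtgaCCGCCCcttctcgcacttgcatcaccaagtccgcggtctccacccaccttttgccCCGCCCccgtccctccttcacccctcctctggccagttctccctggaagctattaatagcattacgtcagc

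Counted from the start, the Jun window had a CCAAT box at -65 to -61 and a GC box at -89 to -84. The single GC box of the Fos window lay at -74 to -69 and that of the Fosl2 window at -75 to -70, while the Atf3 window held 5 GC boxes between -210 and -66. A match describes the sequence and says nothing of whether a factor was bound.

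At promoters most AP-1 genes were open in both libraries, and they differed little between the libraries. In the young library 9 of the 10 lay above the median level of all protein-coding promoters. Percentiles of level below refer to that library and set, and percentiles of ratio to the promoters with 50 or more fragments. Over the 10 genes the median log2 ratio was -0.02, beside -0.05 over the 15955 protein-coding promoters with 50 or more fragments, whose middle 90% ran from -0.28 to 0.51. None of the 10 was more than 1.2-fold higher in the aged library (background 11.6% of all promoters) and 1, the upstream start of Atf3, was more than 1.2-fold lower (background 5.76%). This background also holds promoters with as few as 50 fragments, where counting error is wider than at most of the 10. No background matched for fragment number was counted. Summed over the genes, 479 FPM in the young library stood against 466 in the aged one.

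**Figure D1:**
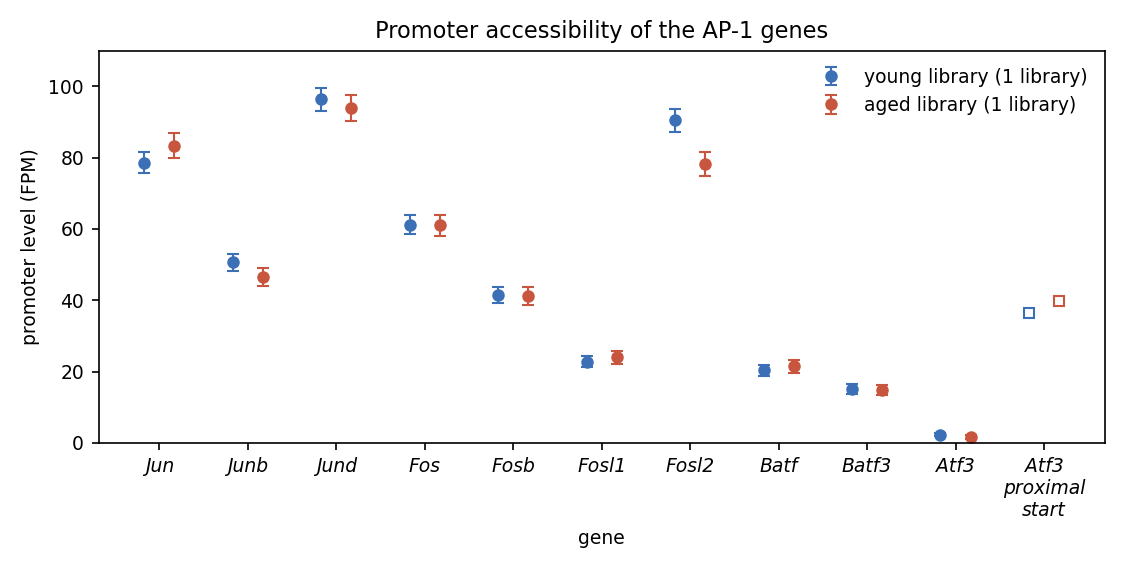
Promoter level of each AP-1 gene (FPM within 1 kb of the annotated gene start, y axis) in the young (blue) and aged (red) library, with exact 95% counting intervals on the filled points. Open squares give the proximal start of Atf3, at 36.3 and 39.8, and Fosl2 is at 90.5 in the young library against 78.1 in the aged one.

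Among the Jun family, whose members can bind DNA without Fos, Jun had 78.6 FPM (2722 fragments) in the young and 83.3 FPM (2176 fragments) in the aged library. Its log2 ratio was 0.08 (0.00 to 0.16), at percentile 76.6 of all promoters, and the lower limit was close to 0. The ratio stayed above 0 under every alternative run, from 0.02 within 500 bp of the start and 0.05 when scaled to all unique nuclear fragments to 0.14 with the median of all promoters set to 0 and 0.18 within 5 kb. Junb, a family member that often acts against Jun, had 50.7 and 46.5 FPM, a ratio of -0.12 (-0.23 to -0.02) at percentile 26.3. Jund, the member that is expressed without stimulation in many tissues, had 96.3 and 93.9 FPM, a ratio of -0.04 (-0.11 to 0.04). It was the most open of the 10 promoters in both libraries, at percentile 99.4 of all promoters by level in the young one, and no difference was detectable there at this depth. The start used matters for both: at the RefSeq start of Jund, at -1210 bases, there were 41.9 and 38.6 FPM (-0.12, -0.23 to 0.00), and at a second annotated start of Junb, 2176 bases into the gene, 64.1 and 66.0 FPM (0.04, -0.05 to 0.13).

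In the Fos family, which needs Jun partners, Fos and Fosb were level between the libraries and Fosl2 was lower in the aged one. Fos had 61.2 FPM in the young and 61.0 FPM in the aged library, a ratio of -0.01 (-0.10 to 0.09), and Fosb had 41.4 and 41.1 FPM, a ratio of -0.01 (-0.13 to 0.10). Fosl1 (Fra-1) was less open, with 22.7 and 24.0 FPM and a ratio of 0.08 (-0.08 to 0.23). No difference was detectable at these 3 annotated gene starts, while at another Fosl1 start, 374 bases into the gene, there were 33.8 and 37.5 FPM (0.15, 0.02 to 0.27). Fosl2 (Fra-2) had 90.5 FPM (3132 fragments) in the young and 78.1 FPM (2042 fragments) in the aged library. Its ratio of -0.21 (-0.29 to -0.13) lay at percentile 9.21 of all promoters, although at percentile 99.0 it was among the most open. At its RefSeq start there were 76.2 and 69.3 FPM (-0.14, -0.22 to -0.05).

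Of the 3 partners outside the Jun and Fos families, Batf and Batf3 were by value less open than the Jun and Fos family genes, though near the middle of all promoters (percentiles 56.3 and 50.4), and Atf3 depended on which start was taken. Batf, which works with Jun proteins and Irf4 in lymphocytes, had 20.3 and 21.4 FPM, a ratio of 0.08 (-0.08 to 0.24). Batf3, known for its role in cross-presenting dendritic cells, had 15.0 and 14.8 FPM, a ratio of -0.02 (-0.22 to 0.17). At the 5′ end of the annotated Atf3 gene, an upstream start, there were 80 fragments (2.31 FPM) in the young library against 41 (1.57 FPM) in the aged one, a ratio of -0.54 (-1.14 to 0.00). At the proximal start, 34699 bases into the annotated gene, there were 1257 (36.3 FPM) and 1040 (39.8 FPM), a ratio of 0.13 (0.01 to 0.25). The proximal start carried nearly all the signal and was slightly higher in the aged library, whereas the interval at the upstream start included 0.

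In the young library the order of levels was Jund, Fosl2, Jun, Fos, Junb, Fosb, Fosl1, Batf, Batf3 and Atf3, and each neighbouring pair was apart by more than its counting interval. Atf3 is placed here by its upstream start, and by its proximal start it would stand between Fosb and Fosl1 by value in both libraries. In the aged library Jun and Fosl2 changed places, with a Jun to Fosl2 ratio of 1.07 (1.003 to 1.13) against a Fosl2 to Jun ratio of 1.15 (1.09 to 1.21) in the young library. Fosl1 and Batf could not be told apart in the aged library, where their ratio was 1.12 (0.996 to 1.25). All windows had the same length, so these levels can be compared between genes at the starts used, but the order depends on those starts. At another Fosb start, 451 bases into the gene, there were 63.4 FPM in the young and 60.3 FPM in the aged library. The second Junb start had 64.1 and 66.0 FPM. By value both then stood above Fos in the young library. At its RefSeq start, with 41.9 and 38.6 FPM, Jund would no longer be first.

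**Figure D2:**
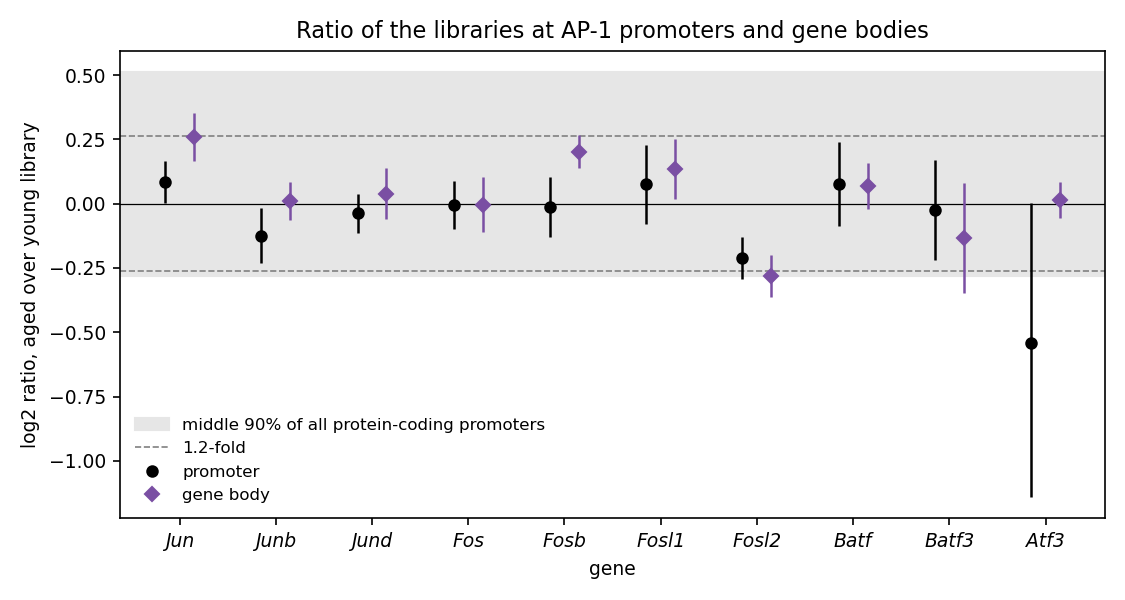
Log2 ratio of the aged over the young library (y axis) at the promoter (circles) and over the gene body (diamonds) of each AP-1 gene, with 95% counting intervals. The grey band holds the middle 90% of all protein-coding promoters (-0.28 to 0.51) and dashed lines mark 1.2-fold. Jun and Fosb bodies lie above their promoters, and both Fosl2 values lie below 0.

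Cut sites in 50-bp steps gave the same maxima in both libraries for Jun and Jund (in the step from -200 bp), Fos (from -50 bp), Fosb (from -300 bp) and Fosl2 (from -100 bp). The maximum moved at Junb (from -100 to -1250 bp) and at the proximal start of Atf3 (from -200 to 50 bp). At Jun the maximum was 14.8 cut sites on the FPM scale in the young library against 14.1 in the aged one, while the sum over 3 kb on either side was 272 and 303. At Fosl2 the maximum was 14.0 and 11.6 and the sum 277 and 247. No interval was computed for single steps. At Fos the sums were 199 and 200.

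**Figure D3:**
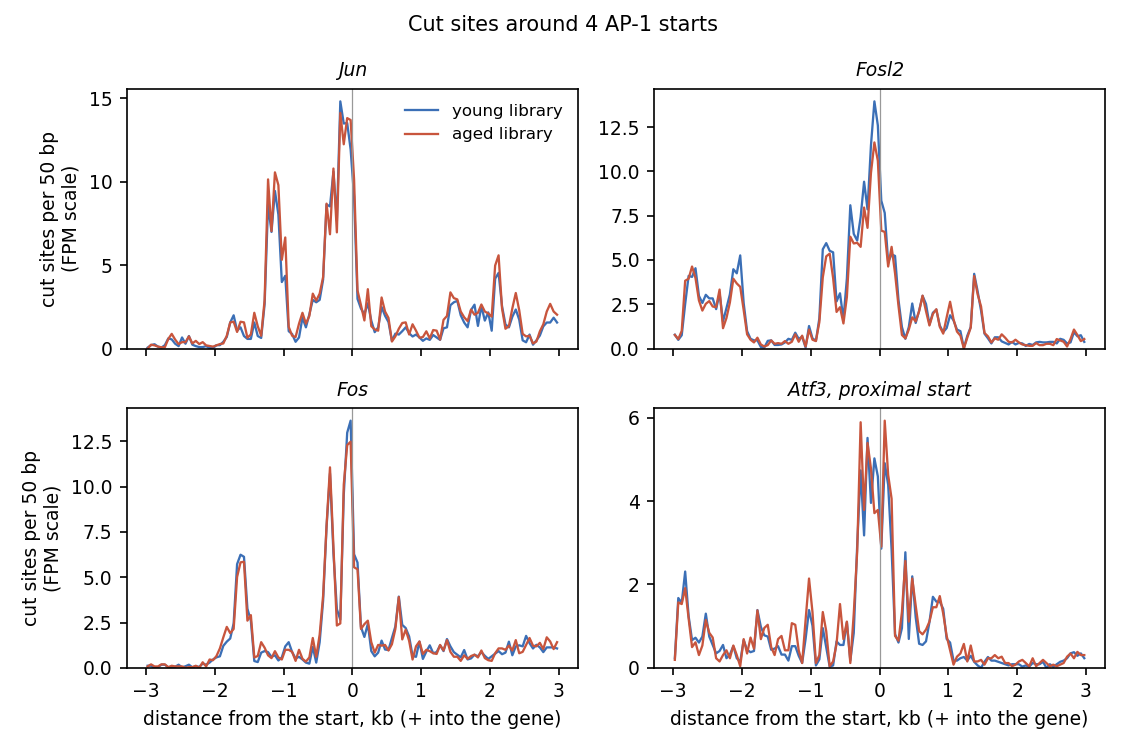
Cut sites on the FPM scale in 50-bp steps (y axis) by distance from the start in kb (x axis, positive into the gene) in the young (blue) and aged (red) library. The summits coincide at Jun, Fosl2 and Fos, the Fosl2 summit is 14.0 in the young library against 11.6 in the aged one, and the proximal start of Atf3 peaks at 5.52 (in the step from -200 bp) and 5.93 (from 50 bp).

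Fragments at most of the promoters were predominantly short, as at nucleosome-free DNA. At Jund 76.3% of young and 76.5% of aged fragments were shorter than 150 bp, and at Jun 73.5% and 71.2%. Fos had 65.7% and 61.2%, and Batf 53.6% and 48.8%. At Fosl1 the shares were 58.2% and 57.8% and at the upstream start of Atf3 56.2% and 41.5%. The share was lower in the aged library at 9 of the 10 promoters, as it was in the whole aged library. With only fragments shorter than 150 bp the ratio of Jun was 0.13 and that of Fosl2 was -0.17.

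Over gene bodies the ratios ran from -0.28 at Fosl2 to 0.26 at Jun. The median log2 ratio over the 10 bodies was 0.03, beside -0.02 over the 18420 bodies with 50 or more fragments. No AP-1 body was more than 1.2-fold higher (background 11.8%) and 1, that of Fosl2, was more than 1.2-fold lower (background 5.11%). That background too was not matched for fragment number. Levels of bodies are given per kb because the genes run from 1.67 kb (Jund) to 47.7 kb (Atf3).

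Jun had 17.8 FPM per kb in the young library against 21.2 in the aged one, a body ratio of 0.26 (0.17 to 0.35) at percentile 88.1. Its interval lay above 0, and the ratio was just under the 1.2-fold line. Without the promoter window the ratio of the Jun body was 0.32 (0.20 to 0.44), so the part of the gene beyond 1 kb from the start carried the larger difference. Fosb had 16.3 and 18.7 FPM per kb, a ratio of 0.20 (0.14 to 0.27), and 0.23 (0.16 to 0.30) without the promoter window, beside a promoter ratio of -0.01. The Fosb difference thus lay within the gene, and none was detectable at its start.

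Fosl2 had 4.18 FPM per kb in the young library against 3.44 in the aged one, a body ratio of -0.28 (-0.36 to -0.20) at percentile 4.45 of all bodies. Without the promoter window it was -0.35 (-0.45 to -0.24). Fosl1 had 4.60 and 5.05 FPM per kb, a ratio of 0.14 (0.02 to 0.25). For the remaining genes, Junb (0.01), Jund (0.04), Fos (0.00), Batf (0.07), Batf3 (-0.13) and Atf3 (0.02), the interval of the body ratio included 0. Without the promoter window the ratio was -0.36 (-0.73 to 0.00) for Batf3, from 172 and 101 fragments, and -0.09 (-0.26 to 0.07) for Jund. Jun, Batf3 and Fosl2 were then beyond the 1.2-fold line, and no share of all bodies was counted for that definition.

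Of 1033 bins of 500 bp with 50 or more fragments in the genes and flanks, 53 (5.13%) were more than 1.5-fold higher in the aged library and 58 (5.61%) more than 1.5-fold lower. Over all 299411 such bins of the genome the shares were 13.3% and 5.0%. The median log2 ratio was -0.01 beside 0.07. By value, at this minimum of 50 fragments, the share of lower bins around the AP-1 genes was near the background and the share of higher ones below it. This background was not matched for fragment number, on which the shares depend. At a minimum of 100 fragments 20 of 730 bins were higher and 23 lower, and no genome-wide share was counted. Bins of neighbouring members overlap, because Batf3 and Atf3 lie within each other's flanks.

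The Fosl2 locus had the lowest ratio of the 10. None of its 75 tested bins was higher and 17 were lower, and its whole locus of 222 kb had a ratio of -0.24 (-0.28 to -0.19). Of the 17 lower bins, 10 lay inside the gene between 5.25 and 13.8 kb from the start, 9 of them with their centre in an intron, with ratios from -1.33 to -0.62. All 15 tested bins of that stretch, which was delimited after its values were seen, had ratios below 0, and together they held 1039 fragments in the young library against 490 in the aged one. The single other protein-coding promoter within the flanks had fewer than 50 fragments. A stretch downstream of Fosb, between 10.1 and 16.6 kb from its start, went the other way. It was also delimited after its values were seen, and was confined to bins near the gene. Of its 13 tested bins 7 were more than 1.5-fold higher (ratios from 0.64 to 1.60) and 1 was below 0. Of the 7, 3 had their centre in an intron and 3 were intergenic. The stretch held 1034 fragments in the young library against 926 in the aged one before scaling to the smaller aged total. The whole downstream flank of Fosb had 9 higher and 4 lower of 79 tested bins, beside 13.3% and 5.0% over the genome.

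The Jun locus of 203 kb had the highest ratio of the 10, 0.14 (0.10 to 0.18). Of its 52 tested bins 5 were higher and 2 lower, which is no more than the genome's shares, and the median ratio was 0.27. Higher and lower bins numbered 9 and 2 of 84 at Batf, 9 and 3 of 167 at Jund, 12 and 5 of 159 at Fosb, 3 and 2 of 95 at Fosl1, 6 and 7 of 116 at Fos, 3 and 5 of 69 at Batf3, 5 and 10 of 95 at Atf3 and 1 and 5 of 121 at Junb. The share of higher bins was below the genome's 13.3% at each of the 10 loci. All 6 tested bins within the Jun gene had ratios above 0, while the single other protein-coding promoter within the Jun flanks had a ratio of -0.11. The Fos locus (-0.03, -0.058 to -0.001), the Fosb locus (-0.02, -0.04 to 0.01) and the Jund locus (-0.01, -0.04 to 0.01) were nearly level, though the Fos interval lay just below 0. Junb (-0.07), Fosl1 (-0.05), Batf3 (-0.08) and Atf3 (-0.11) were slightly lower and Batf (0.05) slightly higher, each with an interval on 1 side of 0. Of the other tested protein-coding promoters in the flanks, 3 of 4 were more than 1.2-fold lower at Batf3 and none higher. Among these 3, Tatdn3 and Nsl1 (-0.29 and -0.30) start close together, so their windows overlap and are not separate promoters. The counts lower and higher were 1 and 1 of 16 at Junb, 1 and 1 of 10 at Jund, 0 and 1 of 11 at Fosb and 1 and 0 of 14 at Fosl1 (background 5.76% and 11.6%).

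**Figure D4:**
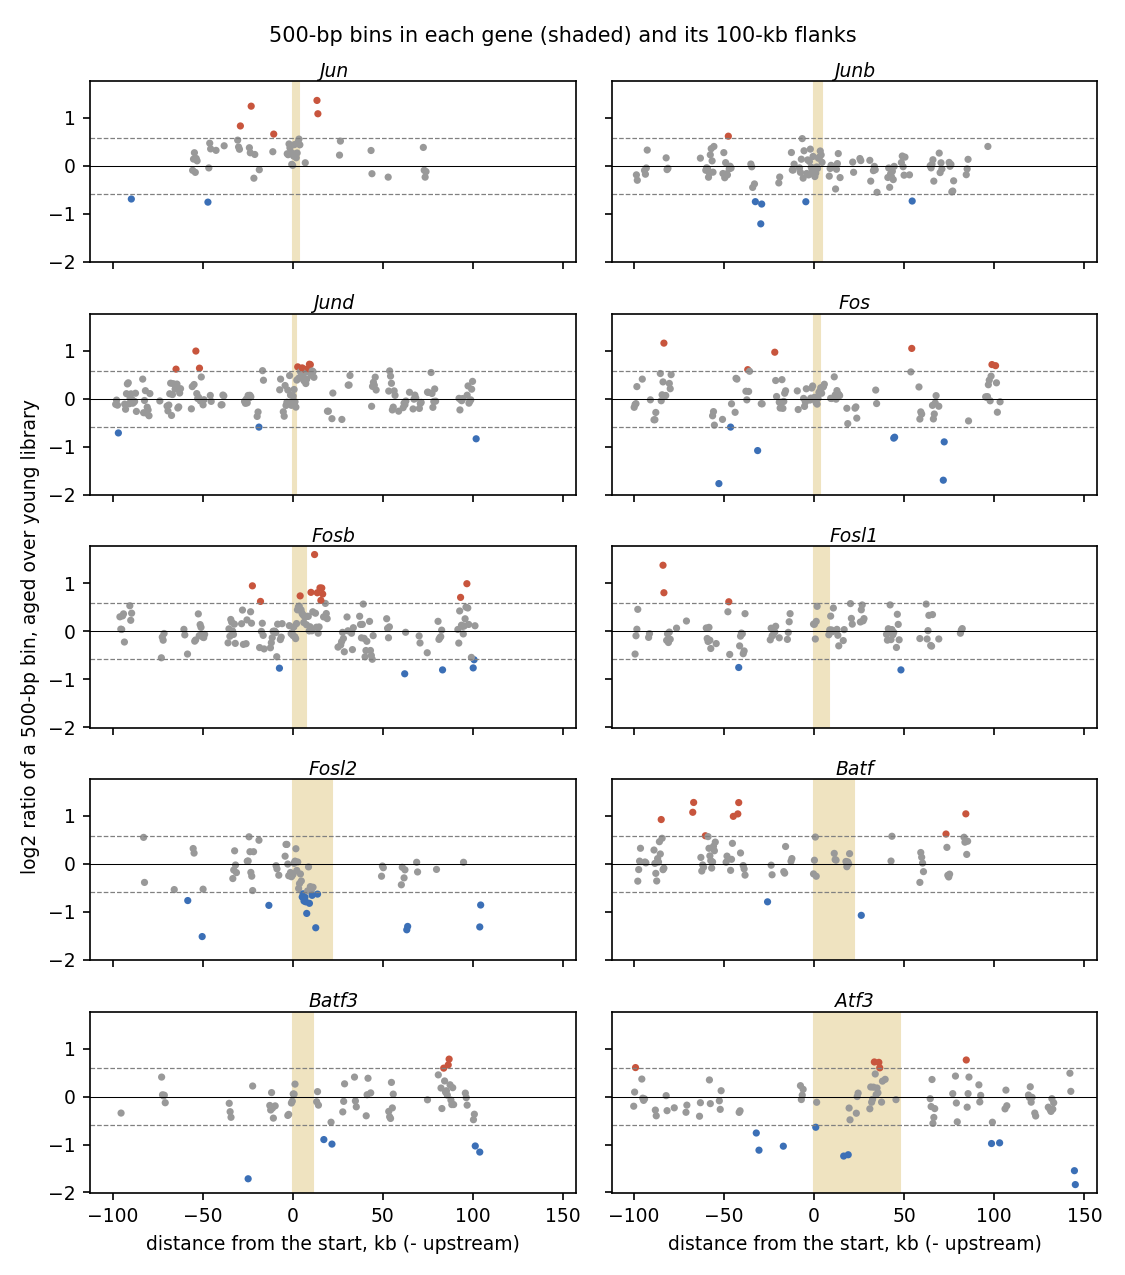
Log2 ratio of the aged over the young library for each 500-bp bin with 50 or more fragments (y axis) by distance from the annotated start in kb (x axis, negative upstream), with the gene shaded and 1.5-fold dashed. Red bins are more than 1.5-fold higher and blue bins more than 1.5-fold lower in the aged library. Fosl2 has 17 blue bins and no red one, with 10 of the blue bins inside the gene.

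The highest bin of all lay 12.1 kb downstream of the Fosb start, with 20 fragments in the young library against 47 in the aged one and a ratio of 1.60 (0.86 to 2.47). The next were bins 83.8 kb upstream of Fosl1 (23 and 46 fragments, 1.38) and 13.4 kb downstream of the Jun start (17 and 34 fragments, 1.37). All 3 were intergenic and rested on few fragments. The 2 lowest positions were in an intron of Nsl1, 24.8 kb upstream of Batf3, with 112 and 25 fragments and a ratio of -1.71 (-2.45 to -1.12), or 103 and 21 fragments and -1.84 in the overlapping bin counted from Atf3, and 52.8 kb upstream of Fos, with 94 and 20 fragments and a ratio of -1.77 (-2.60 to -1.12). For the other genes the highest bins had ratios of 0.62 (Junb), 0.99 (Jund), 1.16 (Fos), 0.56 (Fosl2), 1.28 (Batf), 0.78 (Batf3) and 0.76 (Atf3). The Junb bin lay 590 bases, and the Fosl1 bin 2945 bases, from the start of another protein-coding gene. The Batf bin lay in an intron of Jdp2.

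Distal peaks, called on each library, merged and over 1 kb from the 5′ end of any protein-coding gene, gave a sharper picture of single elements. Other annotated starts were not left out, so peaks at the proximal Atf3 start and at the second Junb start count as distal. The genes and flanks held 313 of them, 26 shared between neighbouring members. Of 283 with 50 or more fragments, 8 (2.83%) were more than 1.5-fold higher in the aged library and 24 (8.48%) more than 1.5-fold lower. Over all 110410 tested distal peaks the shares were 14.4% and 7.28%. The median ratio was -0.06 beside 0.03. The interval lay on 1 side of 0 for 7 of the 8 higher and 20 of the 24 lower peaks. By value, at this minimum of 50 fragments, lower peaks, taken over all loci, were about as frequent as in the genome and higher ones rarer. That background was not matched for fragment number either. At a minimum of 100 fragments 6 of 238 peaks were higher and 10 lower, and no genome-wide share was counted.

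By locus the higher peaks were 3 of 29 tested at Batf, 2 of 41 at Fosb, 1 of 21 at Jun, 1 of 41 at Jund and 1 of 19 at Fosl1. The lower ones were 8 of 39 at Atf3, 5 of 23 at Fosl2, 5 of 26 at Batf3, 4 of 41 at Fos and 3 of 28 at Junb. Batf had 2 of 29, and Jund and Fosb 1 of 41 each. Peaks in the flanks of both Batf3 and Atf3 are counted for both, and all 5 lower peaks of Batf3 are among the 8 of Atf3. By value the share of lower peaks was above the genome's 7.28% at Atf3, Fosl2, Batf3, Junb and Fos and below it at the other loci. These are small counts, and at Junb, Fos and Batf the share was near that of the genome. The share of higher peaks was below the genome's 14.4% at each locus. By place, 17 of the 24 lower and 5 of the 8 higher peaks were intergenic, and 5 and 3 were intronic, where 60.1% and 25.4% of all 283 tested flank peaks were so placed.

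The lowest peak lay 52.7 kb upstream of Fos in intergenic sequence, with 81 fragments (2.34 FPM) in the young library against 15 (0.574 FPM) in the aged one. Its ratio was -1.95 (-2.93 to -1.22), and 1.58% of young and 0.44% of aged cells had a fragment in it. A peak in an intron of Nsl1, 24.6 kb upstream of Batf3, had 106 and 27 fragments and a ratio of -1.53 (-2.23 to -0.95). These 2 peaks overlap the 2 lowest bin positions named above, so peak and bin are not separate results. A peak 63.6 kb downstream of the Fosl2 start had 246 fragments (7.10 FPM) and 70 (2.68 FPM), a ratio of -1.39 (-1.81 to -1.02), with 4.71% of young and 1.94% of aged cells. The last was the best covered of the 3. All 3 lay nearer to the start of another gene than to the AP-1 gene named. These starts were those of Tmed10 (46.3 kb), Nsl1 (10.2 kb) and Plb1 (33.3 kb), in the same order.

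The highest peak lay 13.9 kb downstream of the Jun start, with 59 fragments (1.70 FPM) in the young library against 101 (3.86 FPM) in the aged one. Its ratio was 1.17 (0.70 to 1.67), and 1.17% of young and 2.88% of aged cells had a fragment in it. A pair of peaks in the upstream flank of Batf followed, 42.0 kb from the start with 91 and 154 fragments (1.16, 0.78 to 1.56) and 67.0 kb from it, in an intron of the AP-1 repressor gene Jdp2, with 45 and 72 fragments (1.07, 0.53 to 1.66). The Jun peak and the Jdp2 intron peak overlap in part the highest bins of Jun and Batf, so peak and bin are not separate results. The highest peaks of the other genes had ratios of 0.70 (Jund), 0.76 (Fosb), 0.75 (Fosl1), 0.57 (Fos), 0.54 (Batf3 and Atf3, at 1 peak by the proximal Atf3 start), 0.47 (Fosl2) and 0.34 (Junb). Several of these peaks lay nearer to the start of another gene than to the AP-1 gene named. The Jund peak was 1.82 kb from the Gdf15 start, the Fosl1 peak 2.46 kb from that of Eif1ad and the Fos peak 26.7 kb from that of Jdp2. The Fosb peak lay in an intron of Rtn2 and the Junb peak in an intron of Syce2. At Junb and Fosl2 the interval of the highest peak included 0.

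The 12 distal peaks with the most fragments had ratios from -0.14 to 0.03, and the interval included 0 at 10 of them and lay below 0 at 2. The first of these 2 lay 18.6 kb upstream of Fos, with 77.5 FPM in the young library against 70.2 in the aged one and a ratio of -0.14 (-0.23 to -0.06). The second, 6.70 kb upstream of Fosb, had 39.3 and 35.7 FPM (-0.14, -0.26 to -0.02). Among the 10, a peak 12.2 kb downstream of the Fos start had 49.5 and 49.5 FPM and a ratio of 0.00 (-0.10 to 0.11). A peak 9.95 kb upstream of Fosb had 43.5 and 43.5 FPM, and one in Batf itself, 18.9 kb from the start, 34.9 and 35.5 FPM. The peak at the second Junb start, also among the 10, had 44.8 and 45.8 FPM (0.03, -0.08 to 0.14).

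The sequences of 4 distal peaks are printed on the plus strand, 200 bases at the centre of each peak, with TRE, CRE, STAT and CArG motifs in capitals (CCAAT and GC boxes are not marked): the lowest and the highest peak, the lowest of Fosl2, and the Jdp2 intron peak of the Batf flank, the single higher peak with a TRE.

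Lowest, upstream of Fos, chr12:85421057-85421256: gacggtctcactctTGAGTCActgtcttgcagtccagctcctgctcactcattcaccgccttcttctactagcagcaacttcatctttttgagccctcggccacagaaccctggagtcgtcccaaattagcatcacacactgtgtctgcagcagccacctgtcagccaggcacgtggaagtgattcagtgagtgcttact

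Lowest of Fosl2, chr5:32199268-32199467: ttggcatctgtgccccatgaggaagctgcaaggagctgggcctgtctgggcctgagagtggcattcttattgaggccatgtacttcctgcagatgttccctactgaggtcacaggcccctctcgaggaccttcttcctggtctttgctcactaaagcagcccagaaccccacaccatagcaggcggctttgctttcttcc

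Highest, downstream of Jun, chr4:95038231-95038430: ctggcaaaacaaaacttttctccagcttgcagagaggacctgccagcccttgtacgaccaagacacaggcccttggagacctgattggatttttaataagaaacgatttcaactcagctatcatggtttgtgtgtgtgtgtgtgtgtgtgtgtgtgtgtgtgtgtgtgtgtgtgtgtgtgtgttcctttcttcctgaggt

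Jdp2 intron in the Batf flank, chr12:85619586-85619785: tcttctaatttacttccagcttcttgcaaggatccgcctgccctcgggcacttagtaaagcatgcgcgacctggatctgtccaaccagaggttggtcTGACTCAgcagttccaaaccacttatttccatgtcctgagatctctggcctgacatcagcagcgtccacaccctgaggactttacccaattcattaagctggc

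The peak upstream of Fos held a TRE on the minus strand and the Jdp2 intron peak one on the plus strand. The Fosl2 and Jun peaks held none of the TRE, CRE, STAT or CArG motifs, and the Jun peak ran into a repeat of tg. Of all 313 flank peaks 24 (7.67%) had a TRE in the central 200 bases, beside 7.70% of all 145737 distal peaks. The CRE was in none (0.326% of all), a STAT site in 8.31% (6.35%), a CArG box in 0.639% (1.02%), a CCAAT box in 18.5% (20.8%) and a GC box in 14.1% (7.26%).

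The 21 tested flank peaks with a TRE, the site that AP-1 itself prefers, had ratios from -1.95 to 1.07, 12 of them above 0 and 9 below, with a median of 0.13. Of these 1 was more than 1.5-fold higher and 1 lower. Over all 8173 tested distal peaks with a TRE the median was 0.20, with 25.3% higher and 4.34% lower. The interval lay above 0 at 4 of the 21 and below 0 at 3. By locus, the ratio was above 0 at 3 of 4 TRE peaks for Jund, 3 of 4 for Batf, 2 of 2 for Jun, 1 of 1 each for Junb, Fosl1 and Fosl2, 1 of 5 for Fosb and 0 of 1 each for Fos, Batf3 and Atf3. The best covered TRE peak of Fosb was the one 6.70 kb upstream described above, and at its other 4 the interval included 0. The TRE peaks of Jun lay 29.6 kb (0.34, 0.02 to 0.65) and 42.6 kb upstream (0.23, -0.30 to 0.75).

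The share of cells with a promoter fragment followed the order of levels. Jund had a fragment in 48.2% (46.8 to 49.6) of young and 48.9% (47.2 to 50.6) of aged cells, and Jun in 40.8% (39.4 to 42.2) and 44.4% (42.7 to 46.1). Fosl2 had one in 44.7% (43.3 to 46.1) and 42.4% (40.7 to 44.1), and Fos in 34.5% and 35.7%. At the other end stood Batf3 with 9.80% and 10.7% and the upstream start of Atf3 with 1.62% and 1.17%. The median share at 1092 olfactory receptor promoters, which blood cells should lack, was 0.082% and 0.088%, with 95th percentiles of 0.348% and 0.411%, so even the upstream start of Atf3 was above this background.

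The share was higher in the aged library at 7 of the 10 promoters. Aged cells were deeper, and after each cell was thinned to 3000 fragments in peaks (4787 young and 3271 aged cells) the number was 4. Jun then had a fragment in 20.7% (19.5 to 21.9) of young and 21.7% (20.3 to 23.2) of aged cells, and Fosl2 in 22.8% (21.6 to 24.1) and 21.3% (19.9 to 22.8). The sign of the difference turned at Fosl1, from 14.5% and 16.4% to 6.64% and 6.57%, at Jund, from 0.71 to -0.43 percentage points (aged minus young), and at Batf3, from 0.86 to -0.18. The direction at Jun, Fos, Fosb and Batf was kept, and the intervals overlapped at each of the 4.

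**Figure D5:**
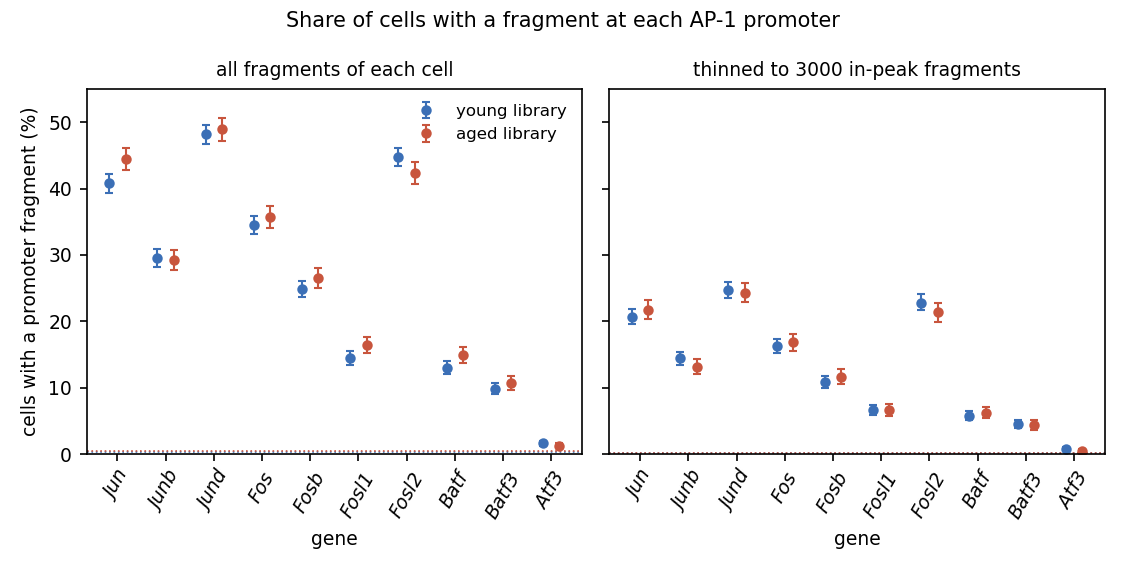
Percentage of cells with at least 1 fragment within 1 kb of each AP-1 gene start (y axis) in the young (blue) and aged (red) library, with exact 95% binomial intervals, using all fragments (left) or 3000 in-peak fragments per cell (right). Dotted lines, close to 0, mark the 95th percentile of olfactory receptor promoters. The gap at Jun narrows from 40.8% and 44.4% to 20.7% and 21.7%.

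A cell had fragments at 2.61 of the 10 promoters on average (SD over cells 1.47) in the young and 2.70 (SD 1.56) in the aged library. With thinned cells the means were 1.27 (SD 1.04) and 1.26 (SD 1.02). None of the 10 promoters had a fragment in 5.85% of young and 7.11% of aged cells, and 5 or more did in 10.7% and 13.4%. After thinning these shares were 25.4% and 24.9%, and 0.355% and 0.245%, so the wider spread in the aged library was no longer seen at equal depth.

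Genes that work with AP-1 were compared in 4 further lists at the promoter. Among 8 relatives and partners (Jdp2, Creb1 and Atf2 among them) none was past 1.2-fold in either direction, and the median ratio was -0.11. Of 12 kinases of the JNK, p38 and ERK routes, which phosphorylate or induce Jun and Fos, 1 was higher and none lower, with a median of -0.08. The exception was Mapk10 (JNK3), which had 8.20 FPM (284 fragments) in the young and 15.9 FPM (416 fragments) in the aged library, a ratio of 0.95 (0.74 to 1.18). None of 8 dual-specificity phosphatases, which switch these kinases off, and none of the 4 serum response factors found under their listed names (of 6, without Mkl1 and Mkl2) was past 1.2-fold, with medians of -0.06 and -0.10. These shares, 1 of 32 higher and 0 of 32 lower, stand beside the background of 11.6% and 5.76%. That background also holds promoters with far fewer fragments than most listed genes and was not matched for fragment number.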

How the data were processed

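Per the labels, reads were processed with Cell Ranger ATAC and Signac on mm10. The authors deposited fragments with barcodes, used here as counts without normalization, and a table per barcode. Barcodes called as cells with 3000 to 20000 in-peak fragments were kept, doublets included (216 young and 229 aged cells were marked by loci with more than 2 fragments and left out as an alternative). Peaks were called on each library (149713 and 145690, q below 0.001) and merged (164377), and counts were scaled to 1000000 of the 34624204 and 26136479 fragments in them (FPM). A fragment counted once, when at least 1 end lay in a region. Promoters were 1 kb on either side of the 5′ end of the gene (GENCODE vM21). Ratios carry a pseudocount of 1 fragment and the exact binomial interval of the aged share, and need 50 fragments in sum. With 1 library per age nothing was tested. Members and lists were chosen with earlier results of these data known. All 10 members are named, other listed genes where past 1.2-fold (at most 5 a list), and of bins and peaks the 3 highest, the 3 lowest and the highest of each member. The peaks with the most fragments and those with a TRE, and the stretches of bins at Fosl2 and Fosb, were picked after their values were seen. Counting, motif search and peak calling were checked on simulated data (Python 3.11.15, numpy 2.4.6, pandas 2.3.3, scipy 1.17.1, numba 0.67.0).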

Additional observations from a re-analysis of the deposited data

How the results depend on the processing

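The median promoter ratio over the AP-1 genes stayed between -0.05 and 0.04 and the median body ratio between -0.01 and 0.04 under all alternatives. The 1 promoter past 1.2-fold (lower, Atf3) became 0 with the transcript start that had the most fragments, and 0 with the RefSeq start, an alternative chosen after seeing the data. With the former the ratio of Junb was reversed to 0.041, since it moved the window into the gene. Thinning brought the promoters with a higher share of cells in the aged library from 7 to 4 and reversed the difference for Fosl1 to -0.070 percentage points, and its sign also turned for Jund (-0.43) and Batf3 (-0.18), whose intervals in the libraries overlapped before thinning. Of the remaining promoter ratios of single genes 17 were identical by construction (the same start, or any overlap in place of an end within the window), 124 moved by less than their interval and 7 by more (Jun, Jund and Atf3), up to 0.18 for Jun with 5 kb and -1.37 for Atf3 after subtraction of flank density. Higher and lower bins numbered 53 and 58 of 1033. At a minimum of 20 fragments they numbered 195 and 179 of 1829, and at 100 they numbered 20 and 23 of 730. With 50-kb flanks the counts were 32 and 37 of 621, and with short fragments 27 and 43 of 676. The cause was not tested. Without the promoter window the body ratio moved to -0.36 for Batf3 and -0.09 for Jund. Higher and lower peaks numbered 8 and 24 of 283. At a minimum of 20 fragments they numbered 16 and 31 of 313, at 100 6 and 10 of 238, and with 50-kb flanks 4 and 20 of 176. Genome-wide shares of bins and peaks were counted only for the settings of the results above. These alternatives therefore have no background beside them, and the comparison with the genome was not made for them. Fosl2 kept its sign under all alternatives (-0.24 to -0.14 at the promoter, -0.35 to -0.28 over the body). No paired analysis was possible because there was 1 library per age, and no replicate could be left out. Bins and peaks of 50 to 100 fragments carry the widest intervals.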
